A study of Saccharomyces cerevisiae with 6 samples.

Results

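The 32 genes described here encode the enzymes of the tricarboxylic acid (TCA) cycle apart from succinate dehydrogenase, the enzymes of the glyoxylate cycle, the enzymes that lead carbon back towards glucose, and 3 transcription factors that act on these genes. They are listed by systematic name as members of these pathways, and all 32 were listed in each of the 3 libraries of Saccharomyces cerevisiae BY4741, among 6572 listed features, 5898 of which have a counterpart in the reference annotation R64 of the strain S288C. BY4741 is a haploid laboratory descendant of S288C that lacks LEU2, URA3 and MET17 and carries a partial deletion of HIS3. Its cells were sampled after 6 h in a medium that the labels call ILM, in mid-exponential growth, and mRNA was sequenced. The series also holds 3 libraries of the probiotic yeast S. boulardii Biocodex, grown alike. Their identifiers name no gene, so the 32 genes were not analysed there and no comparison between the strains is made. Whether the 3 libraries came from separate cultures is not stated in the labels, so the spread between them may be technical.

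In the TCA cycle, acetyl-CoA joins oxaloacetate to form citrate, which is oxidised in the mitochondrion back to oxaloacetate. The glyoxylate cycle shares its outer steps but bypasses the steps that release carbon dioxide, through isocitrate lyase and malate synthase, so that yeast can build sugars from ethanol or acetate. Phosphoenolpyruvate carboxykinase and fructose-1,6-bisphosphatase then turn oxaloacetate into hexose phosphate. In baker's yeast, glucose represses many of these genes. When it runs out, the kinase Snf1 and the activators Cat8, Sip4 and Adr1 switch on the glyoxylate and gluconeogenic genes, the Hap complex acts on respiratory genes, and Rtg1 and Rtg3 act on CIT2.

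Cat8 and Sip4 bind an element named the carbon source-responsive element (CSRE). A core of it, made of CC, 2 bases of any kind, T, 3 bases of any kind and CCG, was searched on both strands of the 500 bases before each start codon of the R64 genome, and it was found for 11 of the 32 genes and in 7.34% of the 5898 windows. The stretches below are shown because 4 of them, before ICL1, PCK1, SFC1 and SIP4, belong to genes whose levels differed most between libraries, while those before MDH2 and MLS1 belong to genes with steady levels. They are read from R64 in the direction of the gene, and the capitals mark the match to the core. The window of MDH2 held 3 matches and those of PCK1 and MLS1 2 each, of which 1 per gene is shown.
ICL1, R64 chrV:287287-287327, minus strand: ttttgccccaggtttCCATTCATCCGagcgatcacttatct
PCK1, R64 chrXI:630656-630696, plus strand: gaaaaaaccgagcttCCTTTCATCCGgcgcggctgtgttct
SFC1, R64 chrX:609273-609307, plus strand: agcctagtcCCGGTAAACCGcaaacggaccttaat
SIP4, R64 chrX:265636-265676, plus strand: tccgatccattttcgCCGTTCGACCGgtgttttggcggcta
MDH2, R64 chrXV:83272-83312, minus strand: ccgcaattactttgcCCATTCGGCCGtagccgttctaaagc
MLS1, R64 chrXIV:405885-405925, plus strand: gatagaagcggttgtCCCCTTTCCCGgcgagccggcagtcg

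The other genes with a match were FUM1, IDP2, CIT3, MDH3 and PYC1. No match was found in the windows of FBP1 and DAL7, which says only that these letters are not in the 500 bases searched. Matches to short motifs are frequent. CCAAT, the core bound by the Hap complex, was found in the windows of 29 of the 32 genes and in 63.0% of all windows, and GTCAC, the R box bound by Rtg1 and Rtg3, in those of 18 of the 32 and in 42.6% of all windows. A match is not a site shown to be used in these cells.

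Several steps have isoenzymes in different compartments, and the end of the coding sequence shows one difference between them. The last 30 bases are given below from R64, with the last 3 codons before the stop codon in capitals. In CIT2, MDH3 and IDP3 these codons are known to encode the type 1 peroxisomal targeting signal, while CIT1, MDH1 and IDP1 encode mitochondrial enzymes.
CIT2, R64 chrIII:120946-120975, minus strand: ttggtcaaaaacattgaaAGCAAACTAtag
CIT1, R64 chrXIV:629622-629651, minus strand: ttggtaaagaaaatcgaaAGTAAGAACtaa
MDH3, R64 chrIV:315357-315386, minus strand: agtttcatcctagactctTCCAAGCTAtga
MDH1, R64 chrXI:280098-280127, plus strand: aagggtgtcaactttgttGCTAGTAAAtag
IDP3, R64 chrXIV:616054-616083, plus strand: gaagacaagaaaggtatgTGCAAACTAtaa
IDP1, R64 chrIV:336092-336121, plus strand: ctacaaaaagaaatcaagTCGATCGAGtaa

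The depth was 18707708, 5181546 and 4581414 counted reads for replicates 1, 2 and 3. No pair of libraries agreed within counting error (chi-square per degree of freedom of at least 45.4). LEU2, URA3 and MET17 had 0 reads in each library, which allows up to 0.655 counts per 1000000 reads (CPM) in the shallowest one. MFA1, a pheromone gene of the mating type that BY4741 carries, stood at 144 ± 9.18 CPM (SD, n = 3), and STE3, a gene of the opposite mating type, at 5.58 ± 2.93 CPM (SD, n = 3). A coding sequence of R64 was matched for each of the 32 genes, and none overlapped another coding sequence annotated in R64. Listed features without a match in R64 were not part of this check. The strand setting of the authors' counting is not given in the sources used here, so reads from antisense RNA cannot be told apart.

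As a set, the 32 genes were abundant and none was silent. Their median level was 283 CPM, against 60.5 CPM over all 5898 matched genes, and together they took 1.31% ± 0.0970 of the reads (SD, n = 3). Of the 32, 27 averaged at least 100 CPM, or 84.4%, while 34.3% of all matched genes did. Only CIT2, PYC1 and MDH2 exceeded 1000 CPM. ICL2, SFC1, DAL7 and SIP4 were among the 5 under 100 CPM. Per kb of coding length, scaled to a sum of 1000000 over the matched genes (TPM), the median was 143 TPM for the 32 genes and 39.5 TPM for all matched genes. These are levels within 1 strain and 1 condition, so they do not show that any gene was induced.

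**Figure D1:**
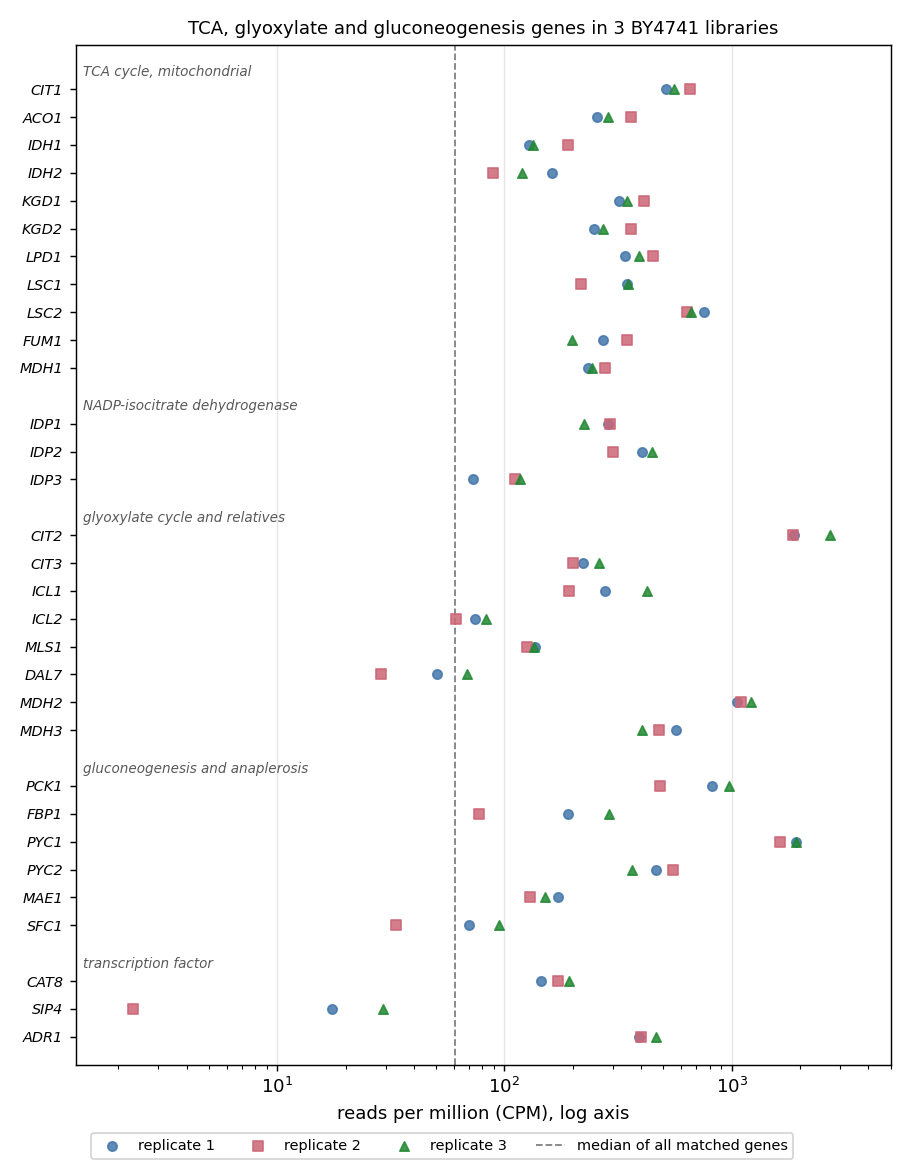
Levels of 31 genes (rows, grouped by role) in CPM on a log axis, with 1 marker per BY4741 library and a dashed line at the median of all matched genes, 60.5 CPM. CIT2, PYC1 and MDH2 sit farthest right, SIP4 farthest left, and the markers of SIP4, FBP1, SFC1, DAL7, ICL1 and PCK1 are spread over 2-fold or more.

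The mitochondrial enzymes of the TCA cycle were mostly abundant. The 12 genes had a median of 297 CPM, and 11 of them averaged at least 100 CPM, against 34.3% of all matched genes. LSC2 (YGR244C) was the highest at 683 ± 60.6 CPM (SD, n = 3). None of the 12 differed over 2-fold between libraries, against 25.5% of all genes of at least 10 CPM and 11.3% of those of at least 50 CPM. CIT1 (YNR001C), the mitochondrial citrate synthase, had 512, 653 and 559 CPM in replicates 1, 2 and 3. ACO1 (YLR304C), the aconitase of the cycle, had 255, 359 and 286 CPM. FUM1 (YPL262W), fumarase, had 271, 347 and 199 CPM, and MDH1 (YKL085W), the mitochondrial malate dehydrogenase, 233, 277 and 244 CPM. In each of these 4 genes replicate 2 was the highest library.

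Genes for partners in 1 enzyme complex differed in how closely they kept together. KGD1 (YIL125W) and KGD2 (YDR148C) encode the first and second components of the 2-oxoglutarate dehydrogenase complex, and LPD1 (YFL018C) its dihydrolipoamide dehydrogenase, which pyruvate dehydrogenase also uses. In replicates 1, 2 and 3, KGD2 had 249, 360 and 273 CPM and KGD1 321, 412 and 347 CPM. LPD1 had 340, 453 and 390 CPM, so all 3 genes were lowest in replicate 1 and highest in replicate 2. KGD4 (YFR049W), a further subunit of this complex, was taken from the list of pyruvate dehydrogenase and carriers. It had 108, 59.8 and 61.1 CPM, and was thus highest in replicate 1 and lowest in replicate 2, opposite to the other 3 genes. Per kb of coding length, KGD2 exceeded KGD1 by 1.77-fold, with a log2 ratio of 0.83 ± 0.09 (SD, n = 3), the smallest spread of the 14 ratios computed. In reads not divided by length KGD2 was the lower, with a log2 ratio of -0.30.

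IDH2 (YOR136W) and IDH1 (YNL037C) encode the subunits of the NAD-dependent isocitrate dehydrogenase, and here the order changed between libraries. IDH2 had 161, 89.4 and 119 CPM, and IDH1 128, 191 and 134 CPM. Replicate 2 was thus the lowest library for IDH2 and the highest for IDH1. The log2 ratio of IDH2 over IDH1 per kb was 0.29, -1.13 and -0.20, with a mean of -0.35 ± 0.72 (SD, n = 3; exact sign-flip permutation p = 0.75), and without replicate 2 it was 0.046. An unannotated reading frame next to IDH2 by name, YOR135C, was counted with 28, 34 and 0 reads. Such frames were also counted next to CIT1, CIT3, ICL1 and MAE1, that of ICL1 with 19, 37 and 14 reads. Whether any of these frames takes reads of the gene beside it was not tested. The genes for the subunits of succinyl-CoA ligase kept 1 order in 3 of 3 libraries, and both were lowest in replicate 2. LSC2 had 752, 637 and 661 CPM and LSC1 (YOR142W) 346, 218 and 348 CPM, so that the log2 ratio of LSC2 over LSC1 per kb was 0.74, 1.17 and 0.55.

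The NADP-dependent isocitrate dehydrogenases, which supply NADPH and 2-oxoglutarate, were led by the cytosolic form. IDP2 (YLR174W) had 405, 300 and 446 CPM, and the mitochondrial IDP1 (YDL066W) 286, 293 and 224 CPM. In replicate 2 they were close, and per kb IDP2 exceeded IDP1 by 1.48-fold over the libraries (log2 ratio 0.57 ± 0.48, SD, n = 3). IDP3 (YNL009W), the peroxisomal form, which serves the oxidation of unsaturated fatty acids, had 72.5, 111 and 117 CPM. It took 13.3% ± 3.39 (SD, n = 3) of the TPM of the 3 genes, IDP2 51.6% ± 7.28 and IDP1 35.1% ± 6.67.

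Outside the mitochondrion, the citrate synthase and malate dehydrogenase genes were the more abundant of their families. CIT2 (YCR005C), the peroxisomal citrate synthase of the glyoxylate cycle, had 1872, 1855 and 2702 CPM and ranked 38 among the 5898 matched genes by CPM and 109 by TPM. It took 73.2% ± 4.06 (SD, n = 3) of the TPM of the 3 citrate synthase genes, CIT1 19.3% ± 4.05 and CIT3 (YPR001W) 7.45% ± 0.627. CIT3, a mitochondrial citrate and methylcitrate synthase, had 222, 200 and 261 CPM. The window before CIT2 held 3 matches to the R box, and that farthest from the start codon is shown with the match in capitals.
CIT2, R64 chrIII:122654-122688, minus strand: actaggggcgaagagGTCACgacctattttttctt

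MDH2 (YOL126C), the cytosolic malate dehydrogenase that serves gluconeogenesis, had 1056, 1094 and 1216 CPM. It exceeded MDH1 per kb by 3.96-fold, with a log2 ratio of 1.98 ± 0.17 (SD, n = 3). MDH3 (YDL078C), the peroxisomal form, had 568, 480 and 402.5 CPM and exceeded MDH1 by 1.86-fold per kb (log2 ratio 0.89 ± 0.30, SD, n = 3). The cytosolic MDH2 took 57.9% ± 4.44, MDH3 27.4% ± 4.61 and MDH1 14.6% ± 1.35 of the TPM of the 3 genes (SD, n = 3 each).

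The enzymes that define the glyoxylate bypass did not vary alike. Per kb, ICL1 averaged 153 TPM and MLS1 68.4 TPM, below the 852 TPM of MDH2. ICL1 (YER065C), isocitrate lyase, had 278, 193 and 426 CPM in replicates 1, 2 and 3, and the libraries were far apart. MLS1 (YNL117W), the malate synthase of the cycle, had 136, 126 and 135 CPM, a range of 1.08-fold between the highest and the lowest library. ICL2 (YPR006C), the mitochondrial 2-methylisocitrate lyase of propionate metabolism, had 74.0, 61.2 and 83.2 CPM and was below ICL1 in each library. Per kb ICL1 exceeded ICL2 by 4.05-fold. DAL7 (YIR031C), a malate synthase paralog that uses glyoxylate from allantoin breakdown, had 50.7, 28.8 and 68.1 CPM, and MLS1 exceeded it by 2.85-fold per kb (log2 ratio of DAL7 over MLS1 -1.51 ± 0.57, SD, n = 3). The coding sequences of MLS1 and DAL7 are 74.0% identical along their alignment but share no stretch of 50 bases.

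Of the gluconeogenic genes, PCK1 (YKR097W), phosphoenolpyruvate carboxykinase, had 817, 483 and 968 CPM. FBP1 (YLR377C), fructose-1,6-bisphosphatase, had 191, 77.6 and 289 CPM. SFC1 (YJR095W), the carrier that exchanges succinate for fumarate across the inner mitochondrial membrane, had 70.2, 33.4 and 94.5 CPM. All 3 were lowest in replicate 2 and highest in replicate 3. MAE1 (YKL029C), the malic enzyme that turns malate into pyruvate, had 171, 130 and 151 CPM, and replicate 2 was again the lowest, within a range of 1.32-fold.

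The pyruvate carboxylases, which refill oxaloacetate, were represented mostly by PYC1 (YGL062W). PYC2 (YBR218C) had 465, 551 and 363 CPM, and PYC1 had 1910, 1632 and 1915 CPM. PYC2 was highest and PYC1 lowest in replicate 2. PYC2 lay below PYC1 by a log2 ratio per kb of -2.004 ± 0.42 (SD, n = 3), and PYC1 took 79.8% ± 4.67 (SD, n = 3) of their TPM. Their coding sequences are 85.1% identical, and 8.46% of the 50-base stretches of PYC1 occur in PYC2. Reads that lie within these stretches do not tell the genes apart. How such reads were counted was not examined. No other gene of the 32 shared a stretch of 50 bases with another coding sequence.

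The 3 transcription factors differed widely. ADR1 (YDR216W), an activator of genes for ethanol and fatty acid use, had 391, 397 and 465 CPM. CAT8 (YMR280C), the zinc cluster activator of gluconeogenic genes, had 144, 172 and 192 CPM. SIP4 (YJL089W), a further zinc cluster activator whose gene is known as a target of Cat8, had 326, 12 and 134 reads, or 17.4, 2.32 and 29.2 CPM, in replicates 1, 2 and 3. The exact 95% Poisson intervals, which cover counting error only, were 15.6 to 19.4, 1.20 to 4.05 and 24.5 to 34.6 CPM, and they do not overlap. Those of FBP1, SFC1, DAL7, ICL1 and PCK1 did not overlap between libraries either, so this is not particular to SIP4. The share over all genes was not computed. Per kb, CAT8 exceeded SIP4 by 9.08-fold, with log2 ratios of SIP4 over CAT8 of -2.26, -5.37 and -1.92. Without replicate 2 the mean log2 ratio was -2.09.

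In all, 14 ratios within libraries were computed, and 13 had the same direction in 3 of 3 libraries, 6 of them above 0 and 7 below. For each of these 13 the exact two-sided sign-flip permutation p was 0.25, the smallest that 3 libraries allow, and 0.269 after Benjamini-Hochberg adjustment over the 14. This test therefore cannot pass a threshold of 0.05 with 3 libraries.

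**Figure D2:**
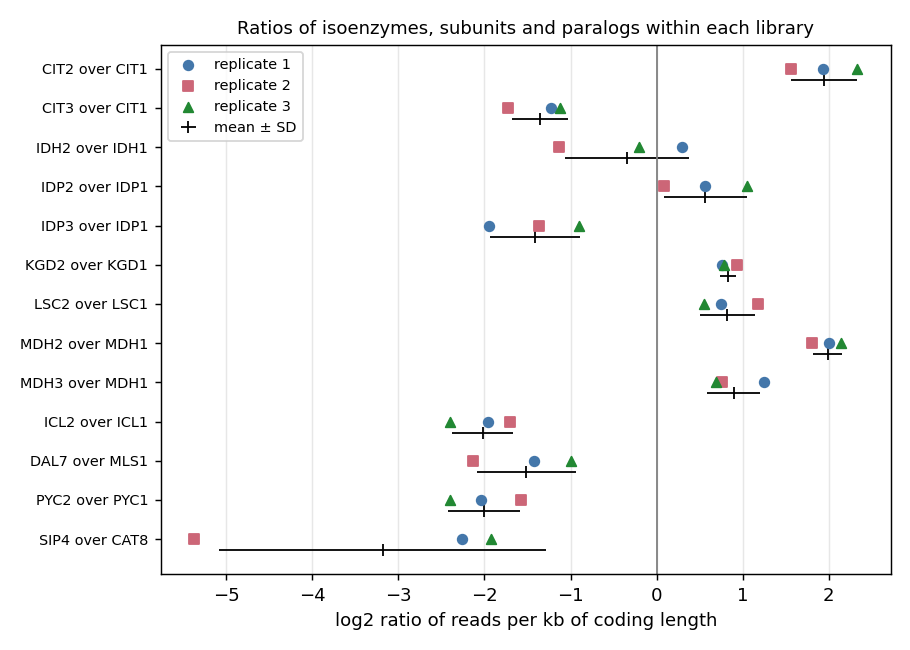
Log2 ratio of reads per kb of coding length between members of 13 gene pairs (rows) in each of the 3 BY4741 libraries, with the mean ± SD in black. The ratios of IDH2 over IDH1 lie on both sides of 0, from -1.13 to 0.29, that of SIP4 over CAT8 in replicate 2 lies at -5.37, and those of KGD2 over KGD1 lie close together.

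The spread between libraries was widest for 6 genes that shared 1 order of libraries. Of the 32 genes, 6 had a highest library over 2-fold above the lowest, or 18.8%, against 25.5% of the 5108 matched genes with a mean of at least 10 CPM. Low genes raise that share, and among genes of at least 50 CPM it was 11.3%, with 4 of the 30 genes of the set at that level over 2-fold. The 6 were SIP4 at 12.6-fold, FBP1 at 3.72, SFC1 at 2.83, DAL7 at 2.37, ICL1 at 2.21-fold and PCK1, which is just inside the limit at 2.004-fold. The nearest gene outside it was IDH2 at 1.80-fold. All 6 were lowest in replicate 2 and highest in replicate 3. Of the 5108 genes, 7.85% had this order and were also over 2-fold. That is 401 of the 1301 genes over 2-fold. Scaled by TMM factors or by DESeq2 size factors, 5 genes remained over 2-fold, and PCK1 was at 1.94 and 1.93. Without replicate 2 none of the 32 genes was over 2-fold, and without replicate 3 FBP1 and SFC1 were, while SIP4 then averaged under 10 CPM and was not counted.

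With or without the limit of 2-fold, 12 of the 32 genes were lowest in replicate 2 and highest in replicate 3, against 23.9% of the 5108 genes. The mitochondrial TCA genes mostly had another order. Of the 12, 8 were highest in replicate 2, against 35.5% of the 5108 genes, and IDH2, LSC1 and LSC2 were not. For the 12 genes the median deviation of replicate 2 from the mean of the other 2 libraries was 0.30 on the log2 CPM scale. For the 6 genes of gluconeogenesis and anaplerosis it was -0.60, and for the 8 of the glyoxylate cycle and its relatives -0.27. Over the 5108 genes it was -0.014. These differences between roles were not tested, because no label sets one library of the strain apart from another.

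**Figure D3:**
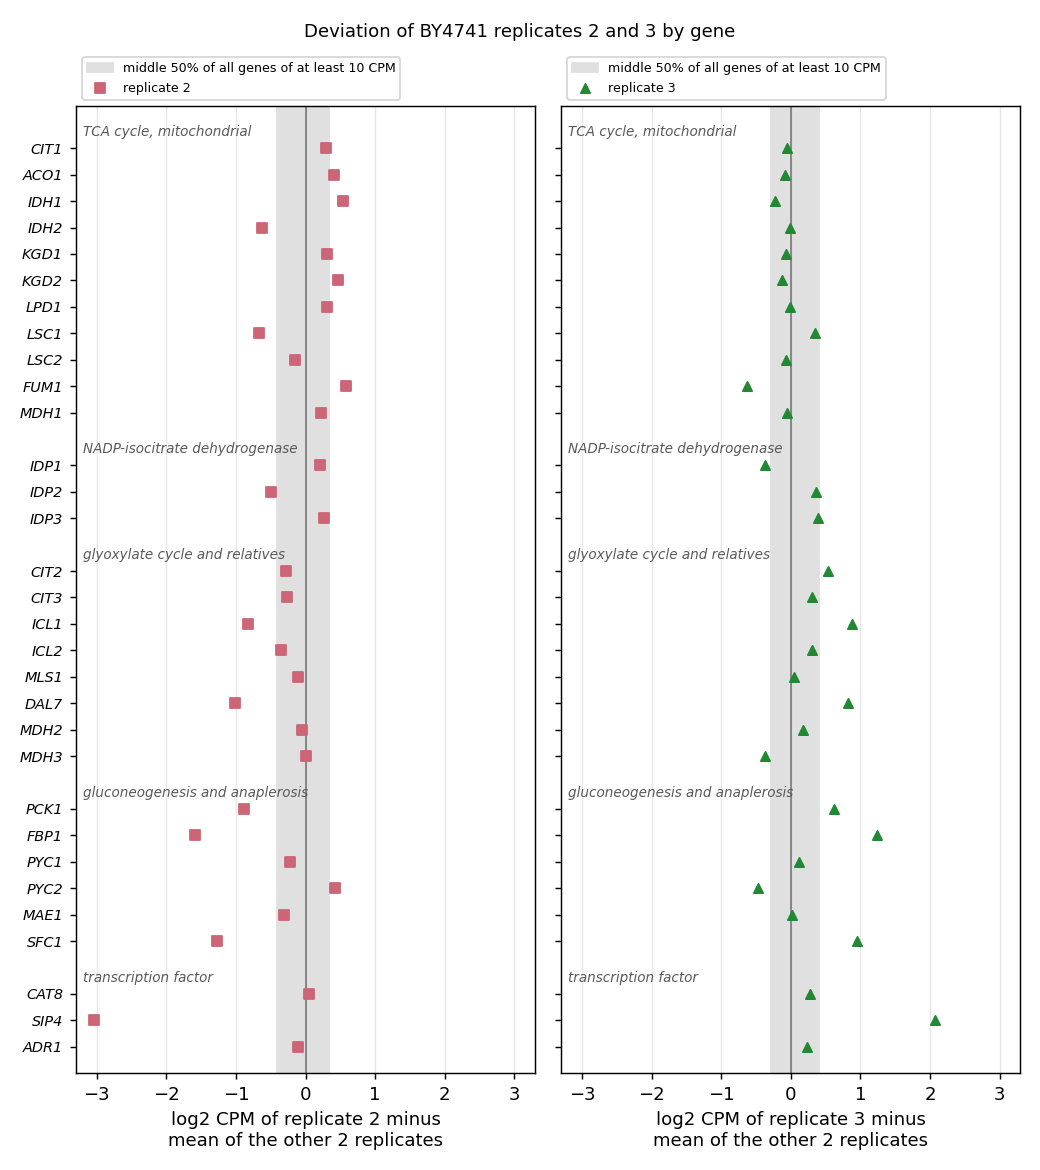
Deviation of replicate 2 (left) and replicate 3 (right) from the mean of the other 2 libraries, in log2 CPM, for 31 genes grouped by role; the grey band holds the middle 50% of the 5108 genes of at least 10 CPM. SIP4, FBP1, SFC1, DAL7, PCK1 and ICL1 lie left of the band in replicate 2 and right of it in replicate 3, while 8 mitochondrial TCA genes lie right of 0 in replicate 2.

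Replicate 1 was the deepest library. Replicates 2 and 3, with the lowest and highest values of the 6 genes over 2-fold, were of similar depth. Spearman rho of the deviation with coding length was -0.19 for replicate 1, 0.16 for replicate 2 and -0.028 for replicate 3. It was taken across the 5108 genes, which are not independent. The 6 genes over 2-fold had coding lengths from 969 to 2490 bases, and the other 26 from 990 to 4302. The part of depth and of coding length in the order of libraries was not tested. MIG2, a repressor gene that glucose induces and the lowest of the 18 regulators listed below, had 3.47, 36.5 and 8.73 CPM, and MIG3, its relative, chosen after its values were seen, 19.6, 36.9 and 5.68 CPM. Both were highest in replicate 2, as were 8 of the 18 regulators in all, against 35.5% of the 5108 genes, while MIG1 had 658, 648 and 582 CPM and HXK2 1091, 1017 and 1160 CPM. The part of these genes in the pattern was not tested. The CSRE core was found before 4 of the 6 genes over 2-fold, before 7 of the other 26 and in 7.34% of all windows. MDH2 and MLS1, with 3 and 2 matches, ranged over 1.15-fold and 1.08-fold, while FBP1, at 3.72-fold, had none. The part of the core in the spread was not tested.

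Genes around these pathways were described from 4 lists, and there was no contrast by which members could be called higher or lower. The 20 genes of pyruvate dehydrogenase, mitochondrial carriers and succinate dehydrogenase had a median of 197 CPM. By CPM they were led by MPC3, a subunit of the mitochondrial pyruvate carrier, at 918 ± 70.9 CPM and PDA1, of pyruvate dehydrogenase, at 590 ± 44.4 CPM (SD, n = 3 each). OAC1, the oxaloacetate carrier, was lowest with 314, 10 and 0 reads, or 16.8, 1.93 and 0 CPM. The 18 regulators had a median of 93.1 CPM, with HXK2, the hexokinase that takes part in glucose repression, at 1089 ± 71.4 CPM and the repressor gene MIG1 at 629 ± 41.2 CPM (SD, n = 3 each). Of the genes of at least 10 CPM, 1 of 19 in the carrier list and 4 of 18 regulators differed over 2-fold between libraries, against 25.5% of all such genes.

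The GID ubiquitin ligase marks gluconeogenic enzymes for breakdown once glucose returns. The 11 genes listed for it and for the transport of its targets had a median of 124 CPM, with VID24, the recognition subunit, at 516 ± 61.9 and GID8 at 386 ± 56.4 CPM (SD, n = 3 each), and VID22 lowest at 16.1 ± 6.88 CPM (SD, n = 3). Of the 11, 4 were highest in replicate 2 and 5 in replicate 3, near the 35.5% and 38.8% of all genes of at least 10 CPM. The 11 genes found of a list of genes in and around allantoin and methylcitrate metabolism had a median of 72.9 CPM. DLD3, a gene named for D-lactate dehydrogenase, stood at 359 ± 37.4 CPM and PDH1, of propionate metabolism, at 320 ± 51.0 CPM (SD, n = 3 each). DAL1, allantoinase, was lowest at 6.23 ± 2.38 CPM (SD, n = 3). Of the 9 genes of this list with at least 10 CPM, 2 were lowest in replicate 2 and highest in replicate 3, the order of DAL7, against 23.9% of all such genes.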

How the data were processed

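The authors deposited raw read counts per gene for each library, with RNA from the Ambion RiboPure-Yeast kit and libraries from NuGEN Universal Plus mRNA-Seq, per the labels' protocols. FastQC, TopHat, HTSeq and DESeq2 were used, per the submitters' processing notes; for their versions, the genome build and the strand setting nothing is given in the sources used here. Unassigned reads have no row, so totals are sums over listed features. The Biocodex counts and gene models were not used here.

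Groups and replicate numbers came from sample titles. Counts were scaled to CPM by library totals, and per kb of R64 coding length to TPM; 674 identifiers did not match R64. Pair ratios used reads plus 0.5 and an exact two-sided sign-flip permutation test over 3 libraries. The genes and lists were chosen with earlier results of these data known. The limits of 100 CPM, 10 CPM and 2-fold were set with the lists, and the order of libraries was counted after the values were seen. The values of 1 of the 32 genes are not reported here, although counts and medians include it; the others are named. Of each surrounding list, the 2 highest and the lowest were to be named. MIG3, MPC1, MPC2, KGD4, CTP1 and the succinate dehydrogenase genes were named outside this rule and were not planned. The symbol DUR1,2 was not found. Promoter windows of 500 bases were read from R64 with its own annotation. On simulated counts for 5108 genes, with 200 genes lowered in replicate 2, the limit of 2-fold called 1% of those changed 1.5-fold, 100% of those changed 3-fold and at most 0.0204% of unchanged genes; these counts held counting error only, not the spread between real libraries. Versions were R 4.3.3, edgeR 4.0.16 (TMM), DESeq2 1.42.0 (size factors), Python 3.11.15, numpy 2.4.6, pandas 2.3.3, SciPy 1.17.1, Biopython 1.88 and matplotlib 3.10.9. Intervals and limits on counts of 0 (3 reads) cover counting error only, as reads are not independent molecules.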

Additional observations from a re-analysis of the deposited data

How the results depend on the processing

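No paired analysis was possible because the Biocodex identifiers carry no gene name and matching genes through the deposited gene models was not attempted, so no test between groups was made. Under TMM or DESeq2 scaling, the mean CPM of each of the 32 genes moved by less than 1 SD. Without each replicate in turn, the mean ranged from 9.87 to 23.3 CPM for SIP4 and from 134 to 240 CPM for FBP1. Dividing by coding length changed the unit, and the median was then 143 TPM for the 32 genes and 39.5 TPM for all matched genes, while the share of the 32 genes was 0.717%. Among genes of at least 1 CPM, 36.1% of all matched genes reached 100 CPM. Among genes of at least 50 CPM, 11.3% differed over 2-fold between libraries and 4 of the 30 genes of the set at that level did. Without each replicate in turn, the median of the 32 genes ranged from 258 to 286 CPM, the number of them over 2-fold from 0 to 6, and the share of all genes over 2-fold from 10.6% to 17.9%, in part because 2 libraries give a smaller range than 3. The log2 ratio of IDH2 over IDH1 ranged from -0.67 to 0.046 without each replicate in turn and changed its sign without replicate 2. That of KGD2 over KGD1 changed to -0.30 without division by length, because KGD1 is the longer gene. The other 12 ratios kept their sign under each alternative run. The value of SIP4 in replicate 2 rests on 12 reads.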

Other observations

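The mitochondrial pyruvate carrier, which feeds the TCA cycle, pairs MPC2 with MPC1 in fermenting yeast and with MPC3 in respiring yeast. MPC3 had 849, 914 and 991 CPM, MPC1 44.8, 50.8 and 81.9 CPM, and MPC2 532, 407 and 414 CPM in replicates 1, 2 and 3. MPC3 was thus the more abundant alternative subunit in each library, also per kb of coding length, at 1794 TPM against 130 TPM for MPC1 on average. The difference was not tested.

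Succinate dehydrogenase, the TCA enzyme that also belongs to the respiratory chain, was encoded by genes at 187 to 480 CPM. SDH1 had 398, 577 and 467 CPM, SDH2 374, 408 and 342 CPM, and SDH4 350, 385 and 326 CPM, each highest in replicate 2. SDH3 had 199, 179 and 184 CPM and was lowest there. CTP1, the mitochondrial citrate carrier, had 22.0, 49.6 and 5.46 CPM, and replicate 2 was 9.09-fold above replicate 3. CTP1 and the succinate dehydrogenase genes were singled out after their values were seen.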
